A study of Mus musculus with 9 samples.

Results

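The transcriptome of wild-type J1 ESCs was described from the 3 control libraries of a series of 9. J1 is an established line of mouse embryonic stem cells (ESCs). The labels give the genotype of the control cells as wild type and name no treatment. The cells were cultured on a matrigel coat with LIF, without feeder cells and without serum. The other 6 libraries came from J1 lines, Foxj3-ES and Zbtb18-ES, that stably carried either gene from a lentivirus, and they were not compared here. RNA of each sample was sequenced on an Ion Proton, and the libraries are called C1, C2 and C3 after replicates 1, 2 and 3. The study's methods name total RNA and its results total mRNAs, and neither gives a step of selection or depletion. Members were all 44788 genes of the deposited table, described by the columns of these 3 libraries alone. Values were UQRPKM, which are reads relative to gene length (in kilobases) and to library size, scaled to the upper quartile of the library. They compare genes per length. The labels do not say whether the 3 libraries came from separate cultures, and the study's general statement on independent experiments does not name the sequencing, so an SD measures only the spread between these libraries, which may be technical.

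Mouse ESCs come from the inner cell mass of the blastocyst and can form all tissues of the embryo. Oct4 (encoded by Pou5f1), Sox2 and Nanog bind together at enhancers of many genes that are active in these cells, and a second circle of factors such as Esrrb, Klf4 and Tfcp2l1 belongs to the naive state, the state of the epiblast before implantation. LIF acts through the receptor pair Lifr and gp130 on Stat3 and maintains this state, whereas FGF4 and ERK signalling prepares its exit. Genes of differentiated tissues are kept low, many of them by Polycomb complexes.

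The table holds no counts, so depth was inferred from the spacing of values in genes with few reads. A step of 1 read for a length of 2000 bases came to 0.467 UQRPKM in C1, 0.489 in C2 and 0.431 in C3. About 13530000, 14720000 and 14640000 reads then fell in the 34373 genes with a transcript length in GENCODE M21. These figures are rough estimates, since the lengths used by the authors may differ. Of the low values, 8.16%, 7.74% and 7.77% were whole multiples of the step within 0.002 reads, and the rows of 5S rRNA took values at multiples of 1 in 10 of a read, so fractions of reads were counted there. If 1 read was worth less than this step, the libraries held more reads and the counting error was smaller than given here. By counting error alone, a gene of 2000 bases listed at 0 could still have had an expected number of up to 3 reads. These would be worth 1.40, 1.47 and 1.29 UQRPKM in C1, C2 and C3.

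Library C2 stood apart from the others. Across the 21491 genes with a mean of at least 1, Pearson's r of log2(UQRPKM + 1) was 0.969 between C1 and C3, 0.952 between C1 and C2, and 0.955 between C2 and C3. These coefficients are across genes, which are not independent replicates, and the libraries share gene length, GC content and cell line. Genes rich in GC were higher in C2 and genes rich in AT were lower, as described with the spread between libraries. Values of each library are therefore given, and counts of detected genes in the lists are repeated without C2 where they change.

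The 3 markers of ESCs were among the abundant mRNAs of every library. Pou5f1, the central factor of the pluripotent state, had 13658, 14115 and 13277 UQRPKM in C1, C2 and C3, or 13683 ± 419 (SD, n = 3). The gene (chr17:35506032-35510777 in GRCm38, which is mm10) was number 25 of 23382 mRNA genes by its mean and held ranks 20, 28 and 27 in the single libraries. About 19907, 19654 and 20976 reads stood behind these values, so counting error was small. Nanog, a homeobox factor that stabilises the naive state, had 2591, 1965 and 2417 UQRPKM and rank 249. Sox2, the partner of Oct4 at composite sites, had 1521, 2246 and 1615 UQRPKM and rank 367. C2 was the lowest library for Nanog and the highest for Sox2, and without C2 the ranks of these genes were 214 and 424. The ranges of Nanog (1965 to 2591) and Sox2 (1521 to 2246) overlapped, so that their order by the mean was not clear of the spread between libraries, whereas Pou5f1 lay above both in all 3 libraries. The data thus carried the markers that the label of these cells calls for.

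Promoters of the 3 markers are shown because these abundant genes began from windows of very different base composition. Each window runs from 250 bases before to 50 bases after the annotated start in RefSeq (GRCm38.p6), and CG dinucleotides are in capitals.
Pou5f1, chr17:35505782-35506081, + strand: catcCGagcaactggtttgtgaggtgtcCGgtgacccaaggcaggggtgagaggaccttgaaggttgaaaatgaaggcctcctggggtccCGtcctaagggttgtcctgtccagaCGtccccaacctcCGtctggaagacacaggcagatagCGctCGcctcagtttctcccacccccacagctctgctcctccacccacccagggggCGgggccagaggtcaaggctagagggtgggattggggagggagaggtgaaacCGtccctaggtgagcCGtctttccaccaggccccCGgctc
Sox2, chr3:34649745-34650044, + strand: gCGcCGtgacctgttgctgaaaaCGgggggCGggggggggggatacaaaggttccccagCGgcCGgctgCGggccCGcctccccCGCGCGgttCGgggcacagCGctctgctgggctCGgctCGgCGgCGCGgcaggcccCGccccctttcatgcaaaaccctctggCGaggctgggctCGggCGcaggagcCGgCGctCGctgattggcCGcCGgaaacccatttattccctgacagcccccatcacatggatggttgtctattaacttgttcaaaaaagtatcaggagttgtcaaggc
Nanog, chr6:122707239-122707538, + strand: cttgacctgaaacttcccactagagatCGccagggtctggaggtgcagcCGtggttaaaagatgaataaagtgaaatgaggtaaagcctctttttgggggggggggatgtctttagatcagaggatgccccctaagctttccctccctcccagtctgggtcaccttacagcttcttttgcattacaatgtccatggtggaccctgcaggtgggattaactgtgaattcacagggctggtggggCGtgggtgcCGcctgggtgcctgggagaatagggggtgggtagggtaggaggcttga
Alb, chr5:90460620-90460919, + strand: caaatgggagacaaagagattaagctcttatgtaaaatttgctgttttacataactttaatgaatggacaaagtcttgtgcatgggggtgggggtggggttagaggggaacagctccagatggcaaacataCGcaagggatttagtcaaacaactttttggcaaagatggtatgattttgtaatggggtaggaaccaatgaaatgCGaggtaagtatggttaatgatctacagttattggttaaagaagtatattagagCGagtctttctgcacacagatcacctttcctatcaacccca
The window of Sox2 held 27 CG dinucleotides with an observed over expected ratio of 0.819, that of Pou5f1 held 11 with a ratio of 0.374, and that of Nanog held 4 with a ratio of 0.192. Alb encodes serum albumin of the liver and was listed at 0 in all 3 libraries, and its window held 3 with a ratio of 0.272. The windows of Nanog and Alb were thus both poor in CG, although the genes stood at opposite ends of the range of levels.

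The results showed that 17760 of 44788 genes (39.7%) were listed at 0 in all 3 libraries, 6115 of them typed mRNA and 10145 typed ncRNA. Another 5537 genes had a mean above 0 and under 1. Of these, 2557 were typed mRNA, and those with a known length had a median of 0.677 estimated reads per library. A mean of at least 1 was taken as detected, and 21491 genes (48.0%) met it, among them 14710 of 23382 mRNA genes (62.9%). Means of at least 10 were found in 15318 genes, of at least 100 in 8050, of at least 1000 in 1129 and of at least 10000 in 76. The median of detected mRNA genes was 81.6 UQRPKM. In C1, C2 and C3, 21226, 20937 and 21111 genes reached 1, with 19037 of them in all 3 libraries and 23413 in any. A value of 0 in this table does not prove that a transcript was absent. A low mean in such bulk RNA may come from few cells with much of the RNA or from many cells with little, and these cannot be told apart.

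**Figure D1:**
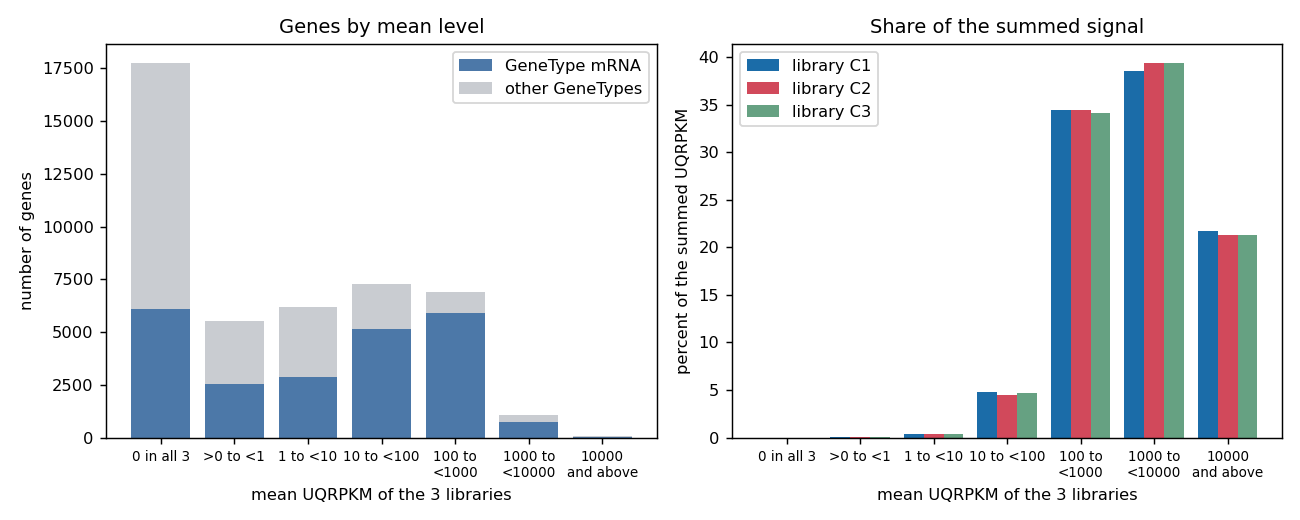
Number of genes (left, mRNA and other GeneTypes stacked) and percent of the summed UQRPKM (right, bars for C1, C2 and C3) in classes of the mean UQRPKM of the 3 libraries. The 17760 genes listed at 0 form the tallest bar on the left, while the 1129 genes of at least 1000 carried most of the signal in each library.

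The signal was concentrated in few genes. The 100 highest genes held 24.9%, 24.6% and 24.7% of the summed UQRPKM in C1, C2 and C3 (mean 24.7% ± 0.200, SD, n = 3), and the 1000 highest held 58.4% ± 0.196. Of the 100 highest genes, 49 were typed mRNA and 41 ncRNA, and 17 were genes of cytosolic ribosomal proteins. Pairs of libraries shared 94 of their 100 highest genes (C1 and C3), 85 (C1 and C2) and 87 (C2 and C3). In the other direction, the 6173 genes with a mean of 1 to under 10 made up 0.397%, 0.352% and 0.378% of the signal together.

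The file sorts genes into 14 GeneTypes, and mRNA genes carried most of the signal. They held 69.2%, 70.3% and 68.8% of the summed UQRPKM in C1, C2 and C3. The 18600 ncRNA genes, which include many pseudogenes and predicted loci, held 25.8%, 25.1% and 26.2%, although 30.6% of them were detected. Of the 1061 genes typed miscRNA 448 were detected, and they held 2.83%, 3.23% and 3.01%. The highest of these was Oaz1-ps, a pseudogene of the antizyme gene Oaz1, with 9582, 22499 and 10918 UQRPKM. Oaz1 itself had 1419, 1684 and 1817. How reads were divided between gene and copy is not known.

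The classes snoRNA and snRNA were detected almost completely, but at levels that moved between libraries. Of 123 genes typed snoRNA, guides of rRNA modification, 116 were detected, as were 16 of 17 snRNA rows. Of 35 rRNA rows 34 reached the limit, but only 2, Rnr1 and Rnr2, had a mean of at least 10. The next highest, the 5S row Rn5s30, had about 1.18, 0.688 and 0.787 estimated reads, so the count of rRNA rows rests on very few reads. Of 413 tRNA rows 128 (31.0%) were detected and 279 were listed at 0 in all 3 libraries. The snoRNA rows held 0.869% of the signal in C1, 0.353% in C2 and 0.749% in C3. Snord49a, a box C/D guide, had 5683, 1120.2 and 5563 UQRPKM. Snora65, a box H/ACA guide, had 1711, 1451 and 1794. C2 was the lowest library for 77 of the 114 genes with a Snora or Snord symbol (beside 30.1% of 11853 mRNA genes with a mean of at least 10), but the gap was not of 1 size, as these examples show. Rn7sk, the RNA that holds the elongation factor P-TEFb inactive, had 1062, 246 and 902 UQRPKM and was likewise lowest in C2. Rmrp, the RNA of RNase MRP, had 527, 64.0 and 269.6, and the RNA of the signal recognition particle (Rn7s1) had 5332, 1623 and 4080.1. The summed level of the scRNA class in C2 was 0.330 of the mean of C1 and C3, and that of snoRNA was 0.477. Terc, the telomerase RNA, was at 7.06 in C1 and listed at 0 in C2 and C3.

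The highest row of all was Rn18s-rs5, a copy of the 18S rRNA sequence, with 110916, 106967 and 85832 UQRPKM, or 1.78%, 1.56% and 1.35% of the signal. The values of the mitochondrial rRNAs were 9825, 6717 and 8970.5 for Rnr2 and 8045, 4048 and 6626 for Rnr1. The highest mRNA gene was Eef1a1, the elongation factor that brings tRNA to the ribosome, with 57022, 45109 and 56638. The chaperone gene Hsp90ab1 had 37000.3, 51973 and 39189. Aldoa, aldolase of glycolysis, had 28457, 32344 and 23700.0, and Pkm, pyruvate kinase, had 13502, 21942 and 13720.3. Ptma, prothymosin alpha, had 23648, 19483 and 23763. Translation supplied many of the 20 highest mRNA genes, with the ribosomal protein genes Rpl4, Rpl26, Rplp1, Rps15, Rpl8, Rpl32 and Rplp0, the elongation factor gene Eef2 and the ribosome scaffold gene Gnb2l1. Rpl4 was even, at 26692, 25349.9 and 25865, whereas Rpl26 spread from 13391 in C1 to 35303 in C2. Gm5506 (25545, 17916 and 17493) is a predicted gene.

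Of the 20 highest mRNA genes, 5 lay on the mitochondrial genome. COX1, COX2 and COX3 encode the catalytic core of cytochrome c oxidase. COX1 had 52959, 31168 and 56342 UQRPKM, COX2 had 35121, 25982 and 31693, and COX3 had 34537, 17198 and 33244. ATP6 and ATP8 of the ATP synthase had means of 18551 and 18486. Together the 13 mitochondrial mRNA genes held 3.49%, 2.37% and 3.29% of the signal. They did not move as 1 block, since C2 was the lowest library for 5 of them and the highest for 6. ND4L, a subunit of complex I, was higher in C2 (3733, 7297 and 3600.4) and ND3 of the same complex was lower (3145, 1153 and 2915).

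Genes of cytosolic ribosomal proteins were high as a group. All 87 were detected, 86 of them above 100 and 61 of at least 1000, with a median of 2169 UQRPKM. They held 6.22% ± 0.283 (SD, n = 3) of the summed UQRPKM. The lowest was Rpl3l, a muscle relative of Rpl3, at 16.9, 36.6 and 34.9. Pseudogenes with a ribosomal protein name held almost as much, 5.91% ± 0.285 over 289 rows, of which 249 were detected. Rpl17 had 99.6, 213 and 129.8 UQRPKM, below its pseudogene rows Rpl17-ps10 (406, 1340.3 and 556) and Rpl17-ps3 (367, 1013 and 467). Reads of a gene and a near-identical copy cannot be separated with certainty in this table, so a single level in this group is uncertain.

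All members of the core list were expressed. The list held 17 genes of the pluripotent state, and 16 had a mean above 100 and 9 of at least 1000, with a median of 1019 UQRPKM, beside a median of 11.1 over all mRNA genes. Dppa5a, an RNA-binding protein of early embryos, followed Pou5f1 at 11915, 5158 and 12482 UQRPKM with C2 alone low. Tdgf1, the Nodal co-receptor Cripto, had 6059, 6395 and 5896. Utf1, a chromatin-bound factor, had 2503, 4619 and 2911. L1td1, an RNA-binding protein derived from a LINE-1 element, was even at 1695, 1732 and 1671. Lin28a, which blocks maturation of let-7 microRNAs, had 1121, 1377 and 1064, whereas its paralog Lin28b had 36.1, 30.1 and 34.9. The 2 paralogs did not overlap, and Lin28a was the higher in every library.

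Further members of the core list lay between these. Fgf4, the growth factor that Oct4 and Sox2 activate, had 1007, 1113 and 937 UQRPKM. Dppa4 had 826, 1127 and 971, and its partner Dppa2 had 209, 146 and 251. Both encode DNA-binding proteins with a SAP domain and lie side by side on chromosome 16, yet C2 was the highest library for Dppa4 and the lowest for Dppa2. Zscan10, a zinc finger factor, had 863, 952 and 819, and Gdf3, a ligand of the TGF-beta family, had 349.6, 319 and 366. Beside Dppa5a, C2 was at least 2-fold from both other libraries in 3 genes. Sall4, a zinc finger factor that acts with Oct4, had 380.4, 856 and 410.3. Trim71, a ubiquitin ligase and RNA-binding repressor, had 169, 449.6 and 184. Rif1, a regulator of replication timing, had 383, 124 and 363. The transcripts of Sall4 and Trim71 hold 53.8% GC and that of Rif1 holds 39.3%, beside a median of 50.4%.

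The naive list was likewise complete, with 17 of 17 genes detected, 16 above 100 and a median of 595 UQRPKM. Esrrb, an orphan nuclear receptor, led it with 1667, 2429 and 1699.8. Zfp42, the zinc finger protein Rex1 that marks the naive state, had 1751, 1769 and 1773 and a CV of 0.657%. Among the Krüppel-like factors, Klf5 had 846, 1888 and 1003, Klf4 had 860.0, 939.8 and 936, and Klf2 had 462, 701 and 622. Tfcp2l1, a target of Stat3, had 713, 1111 and 662, and Tbx3 had 227, 402 and 217. Nr0b1, an orphan receptor that binds Oct4, had 1031, 982 and 1138. Sox15 had 963, 735 and 929, and Tcl1, a coactivator of AKT, had 763, 677 and 746. Prdm14, a repressor of FGF signalling and of DNA methylation, was even at 156, 152 and 152. Nr5a2, which binds the Pou5f1 promoter, had 277, 294 and 296.

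The remaining naive genes were lower. Tet2, an enzyme that oxidises methylcytosine, had a mean of 198 ± 24.7 (SD, n = 3) UQRPKM. Gbx2 had 190.5, 235 and 184 and the adhesion gene Jam2 had 301, 268 and 307. Dppa3, also named Stella, had 119, 88.5 and 93.8. Only a share of cells in culture is known to express this gene, so its bulk value is an average. Fbxo15, an F-box protein used as a reporter of pluripotency, was lowest with 20.1, 17.0 and 22.0, from about 54.5, 44.0 and 64.8 reads.

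**Figure D2:**
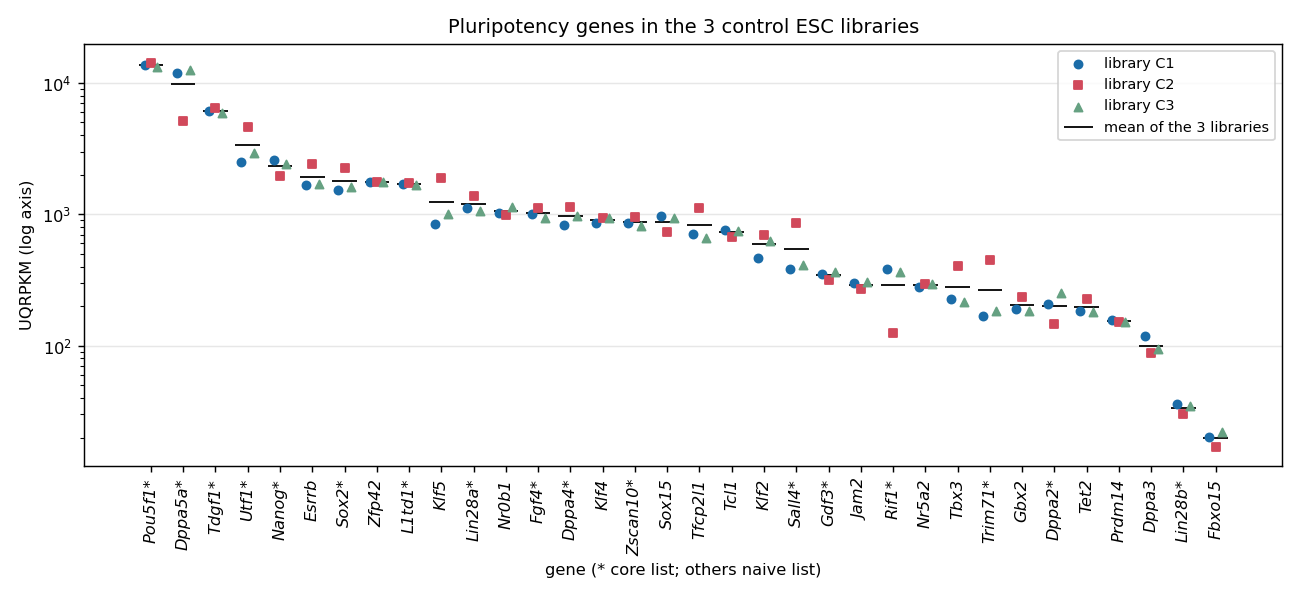
UQRPKM (log axis) of the 34 genes of the core and naive lists in C1, C2 and C3, ordered by the mean of the 3 libraries, which the short lines mark. Pou5f1 stands above all others in each library, and most neighbours overlap, with wide gaps in C2 for Dppa5a, Sall4, Trim71 and Rif1.

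The order of these 34 genes was clear only in part. Of the 33 pairs of neighbours by the mean, 24 overlapped between libraries and 9 did not. Ranges do not compare genes within a library, and Esrrb was above Sox2 in each library although their ranges overlapped. The breaks came after Pou5f1, Tdgf1, Zfp42, Sall4, Gdf3, Tet2, Prdm14, Dppa3 and Lin28b. With C1 and C3 alone, 13 of the 33 pairs overlapped. Between the breaks after Zfp42 (1765 on average) and after Sall4 (549) no neighbours could be ordered over 3 libraries.

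Copies in the genome limit some of these values. Tdgf1-ps1, a pseudogene on chromosome 16, had 4461, 4256 and 4732 UQRPKM, 73.3% of the mean of Tdgf1 on chromosome 9. Zfp42-ps1 had 742, 578 and 619.8, or 36.7% of Zfp42. Dppa5b and Dppa5c, copies of Dppa5a on the same chromosome, had means of 1075 and 1093, and both were lowest in C2 as Dppa5a was. Nanog-ps1 had 62.8, 45.9 and 64.3, or 2.48% of Nanog. The division of reads between gene and copy is not given in the sources used here.

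Genes of the formative and primed epiblast were mostly present at lower levels. Of 12 genes, 10 were detected, 9 had a mean of at least 10 and 2 exceeded 100. Dnmt3b, the de novo DNA methyltransferase that rises at implantation, had 558, 618 and 542 UQRPKM. The tight junction gene Cldn6 had 337, 388 and 312. Otx2, which drives the exit from the naive state, had 39.2, 49.8 and 39.5, and Pou3f1 (Oct6) had 37.9, 45.5 and 47.8. Fgf5, the classical marker of the primed epiblast, was listed at 0 in C1 and C2 and had 0.689 in C3. Cer1, a secreted inhibitor of Nodal, was listed at 0 in all 3. Esrrb was higher than Otx2 in every library.

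Genes of the 2-cell-like state, which few ESCs enter at a time, had low values. Of 11 genes 9 were detected and none had a mean of at least 10, beside 62.9% and 50.7% of all mRNA genes. This bulk RNA does not show how many cells held these transcripts. Zscan4e had 11.4, 3.61 and 6.68 UQRPKM and Zscan4f had 6.45, 3.66 and 8.97. The 6 Zscan4 genes in the list are near-identical copies, so single values are uncertain. Tcstv1 had 1.82, 7.99 and 1.01, from about 2.49, 10.5 and 1.49 estimated reads, so its higher value in C2 rests on few reads.

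Members of the LIF pathway were all detected, and its targets were higher than its receptor. Pim3 had 1328, 1868 and 1513 UQRPKM and Pim1 had 726, 911 and 728. Both encode kinases that Stat3 induces. Socs3, the feedback inhibitor of the pathway, had 1058, 1194 and 918. Stat3 itself had 448, 549 and 443, the gp130 gene Il6st had 221, 254 and 205, and the kinase gene Jak1 had 204, 233 and 198. Lifr, the ligand-binding chain, had 11.9, 18.2 and 11.2 and was the lowest of the 10. C2 was the highest library for all 10 of them, whose median GC content is 56.5%, as it was for 57.9% of 11853 mRNA genes with a mean of at least 10.

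In the FGF and ERK list the ligand and the feedback genes were high and the receptors low. After Fgf4, the ETS factor gene Etv4 had 815, 957 and 814 UQRPKM and the feedback inhibitor gene Spry2 had 752, 911 and 771. The phosphatase gene Dusp6 was even at 173, 177 and 179. ERK1 (Mapk3) had 712, 975 and 788. Of the receptors, Fgfr3 had 39.7, 33.1 and 29.2, Fgfr4 had 29.4, 41.2 and 26.3 and Fgfr1 had 27.3, 34.7 and 28.3, and these 3 could not be ordered. Fgfr2 was clearly below them at 2.34, 2.45 and 2.82.

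All 13 genes of Nodal signalling had a mean of at least 10. Nodal, a ligand that ESCs secrete, had 430.0, 578 and 451 UQRPKM, and its antagonists Lefty2 and Lefty1 had 252, 241 and 192 and 141, 188 and 155. The type I receptor gene Acvr1b had 256, 333 and 242, and the nuclear partner gene Foxh1 had 250.4, 333 and 225.

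BMP signalling was represented by Bmp4 among the ligands and by Id1 among the targets. Bmp4 had 240.0, 239 and 289 UQRPKM, Bmp7 had 31.8, 56.5 and 32.4, and Bmp2 was near 0 with 0.524 in C1, 0.274 in C2 and 0 in C3. The Id genes encode inhibitors of bHLH factors. Id1 had 478, 435 and 529, Id3 had 186, 296 and 310.3, Id2 had 124, 65.6 and 127, and Id4 had 5.63, 21.8 and 12.5. The antagonist gene Nog was at 2.43, 3.56 and 2.69.

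Of 18 genes of Wnt signalling 17 were detected, and 16 without C2. Ctnnb1, encoding beta-catenin, was even at 2626, 2654 and 2684 UQRPKM. The kinase Gsk3a (567, 913 and 692) was far above its paralog Gsk3b (62.1, 74.2 and 52.7). Tcf7l1, the repressor of naive genes among the TCF factors, had 129, 224 and 148. Its relative Tcf7 had 242, 374 and 261, and Lef1 had 31.9, 38.8 and 30.2. Axin2, a target of the pathway, had 32.0, 53.6 and 37.3. Wnt3a had 6.10, 5.68 and 4.06, and the inhibitor gene Dkk1 was at 0.436 in C2 and listed at 0 in C1 and C3.

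Retinoic acid is the inducer that the study used to start neural differentiation, and genes of its receptors were present at baseline. Rarg had 698, 851 and 726 UQRPKM, Rara had 208, 413 and 216, and Rxrb had 226, 293 and 242. Rarb, a gene that retinoic acid itself induces, was at 0.292, 0.306 and 0.539. Cyp26a1, which degrades the ligand, had 0.525, 1.10 and 0.968, and Nr2f1 had 0.893, 0 and 0.275. Crabp1, a cytoplasmic binding protein, had 383, 823 and 371, and Stra8, which retinoic acid also induces and which is known from germ cells at meiotic entry, had 114, 114 and 129. Aldh1a1, a synthesising enzyme, was listed at 0. Over the list, 15 of 21 genes were detected (13 without C2) and 10 had a mean of at least 10.

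MicroRNAs were at the centre of the study, and the table holds their genes but not the mature molecules. Rows of these genes may count fragments of the transcript over the hairpin, so a row at 0 says nothing about the mature microRNA. The sequences printed here are those of the microRNA that the study followed, miR-219, and of the miR-290 cluster, the main microRNA locus of mouse ESCs. Seeds (bases 2 to 8) are in capitals, and sequences and positions are from RefSeq (GRCm38.p6).
mmu-miR-219a-5p, chr2:29845689-29845709, - strand: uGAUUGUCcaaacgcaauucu
mmu-miR-291a-3p, chr7:3218968-3218989, + strand: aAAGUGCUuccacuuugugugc
mmu-miR-294-3p, chr7:3220691-3220712, + strand: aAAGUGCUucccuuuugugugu
mmu-miR-295-3p, chr7:3220815-3220837, + strand: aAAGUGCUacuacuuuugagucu
mmu-miR-291b-3p, chr7:3219529-3219550, + strand: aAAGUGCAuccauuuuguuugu
mmu-miR-290a-3p, chr7:3218674-3218697, + strand: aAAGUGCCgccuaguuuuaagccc
mmu-miR-293-3p, chr7:3220390-3220411, + strand: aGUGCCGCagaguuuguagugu
MiR-291a-3p, miR-294-3p and miR-295-3p share the seed AAGUGCU. Mir290 had 67.6, 35.4 and 72.7 UQRPKM, Mir293 had 23.4, 6.11 and 91.6, and Mir295 had 33.9, 0 and 12.5. Mir291b had 5.92, 0 and 10.9, while Mir290b, Mir291a, Mir292, Mir292b and Mir294 were listed at 0 in all 3 libraries. All of these lie on chromosome 7, and rows of neighbours in 1 cluster thus ranged from 0 to over 50 on average. Mir219-1, Mir219-2, Mir219b and Mir219c were listed at 0 in every library, as were Mir302a, Mir302b, Mir302c and Mir302d.

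Rows of microRNA genes were sparse as a class. Of 1143 rows with a microRNA symbol, 800 (70.0%) were listed at 0 in all 3 libraries, 342 were detected (301 without C2) and 118 were above 0 in all 3. The highest, Mir6236, had 11139, 25689.9 and 13307 UQRPKM, followed by Mir682 (8142, 3285 and 7919.5) and Mir686 (3586, 6381 and 3557). Values of so short rows are large for few reads. Among the 180 with a mean of at least 10, the median CV was 75.6%, against 16.0% for mRNA genes of that level. In Mirlet7g the values were 21.2, 0 and 108.

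The protein machinery of microRNAs was present in full, with 13 of 13 genes detected. Ran, the GTPase of nuclear export, had 2912, 3090.0 and 2942 UQRPKM and Xpo5, the exportin of hairpins, had 489.6, 634 and 466. Drosha and its partner Dgcr8, which cut the hairpin from the primary transcript, had 559, 848 and 589 and 266, 349.6 and 239. Dicer1 had 247, 350.1 and 232. Of the Argonaute genes, Ago2 (245, 425 and 249) and Ago1 (193, 239.6 and 171) did not overlap, and Ago3 (mean 19.9) and Ago4 (3.30, 3.60 and 5.02) were each lower without overlap.

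The 2 genes that the study later expressed in these cells were present in wild type. Foxj3, a forkhead factor, had 124, 145 and 115 UQRPKM, and Zbtb18, a zinc finger repressor with a BTB domain, had 46.4, 65.4 and 49.0. Foxj3 was the higher in every library. All 19 genes that the study followed, these included, were detected, and 11 exceeded 100. Among all mRNA genes, 62.9% were detected and 28.7% had a mean of at least 100. Arid1a, a subunit of the BAF complex, had 410.4, 709.8 and 417. Olig1 (235, 317 and 229) and Olig2 (189, 271 and 227), bHLH factors of oligodendrocyte and motor neuron precursors, were of like level. Their ranges overlapped, but Olig1 was the higher in every library, narrowly so in C3. Camk2b had 170.2, 228 and 145, Glis2 had 187, 262 and 208 and Ndn had 132, 81.1 and 98.6. Gnao1, a G protein subunit abundant in brain, was lowest with 7.47, 13.7 and 6.46, and Shank1 of synapses had 13.1, 19.6 and 12.1. Apart from Foxj3 and Zbtb18, the study drew this list from genes that differed in its lines against these same control libraries. Detection of its members is therefore no finding, and their levels are given only as the baseline.

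Enzymes of DNA methylation were dominated by Dnmt3l, the cofactor of de novo methylation without activity of its own, at 3107, 3733 and 3172 UQRPKM. Dnmt1, which maintains methylation, had 985, 1639 and 1008, and its recruiter Uhrf1 had 1321, 2273 and 1385. Dnmt3b exceeded Dnmt3a (11.0, 14.2 and 10.8) in every library. Of the enzymes that oxidise methylcytosine, Tet1 had 420.1, 506 and 422 and Tet3 had 9.96, 16.3 and 9.89, with Tet2 between them. All 24 chromatin regulators in the list exceeded 100. Trim28, the corepressor of zinc finger proteins that silence retroviruses, was highest with 9765, 12140.1 and 10469.6. The Polycomb subunit genes Eed (828, 779 and 863), Suz12 (704, 378 and 684) and Ezh2 (415, 361 and 360.5) and the BAF ATPase gene Smarca4 (mean 1095) were all well expressed, and Suz12 was lowest and Smarca4 highest in C2.

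All 27 cell cycle genes were detected. Cdk4 had 4008, 4086 and 3885 UQRPKM and the helicase gene Mcm5 had 2495, 3124 and 2363. Ccne1, the cyclin of S phase entry, had 1542, 1752 and 1691, and Ccnd3 had 1877, 2408 and 2001. Trp53 had 1796, 2598 and 1817 and its target Cdkn1a had 287, 466 and 330.0. Cdkn1b (78.2, 84.9 and 87.2) and Cdkn2b (10.1, 25.3 and 21.7) were lower. Rb1, the retinoblastoma gene, was lowest of the 27 with 3.57, 2.16 and 3.01. Of the Myc family, Mycn (653, 685 and 654) stood above Myc (101, 124 and 108) and Mycl (58.5, 92.5 and 57.4) in every library. Mki67, the proliferation marker, had 559, 215 and 536, with C2 the low one.

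All 20 genes of glycolysis were detected, with a median of 1153 UQRPKM. After Aldoa and Pkm, lactate dehydrogenase A (Ldha) had 13566, 12806 and 9751 and enolase 1 (Eno1) had 7544, 9525 and 7197. The glucose transporters Slc2a3 (4526, 5348 and 4302) and Slc2a1 (3302, 4217 and 3344) were both high, and their ranges did not overlap. Hk2 had 613, 1067 and 557. Gapdh was listed at 691, 777 and 614, far below its neighbours in the pathway, and it has many pseudogene copies in the mouse genome, so this value is uncertain. Reference genes that are often used for normalisation covered a wide range. Actb had 5981, 12987 and 7155, Ppia had 3686, 2559 and 4183, Hprt had 1147, 856 and 1178, Ywhaz had 587, 646 and 566 and Tbp had 263, 292 and 248. B2m, a subunit of MHC class I, was low and even at 64.3, 66.1 and 66.3.

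Lists of other cell types were low but rarely empty. Over 13 lineage lists with 194 different genes, 120 were detected (61.9%), 66 had a mean of at least 10, 19 exceeded 100 and 42 were listed at 0 in all 3 libraries, and the median was 2.26 UQRPKM. Among all mRNA genes, 62.9% were detected, 50.7% had a mean of at least 10 and 28.7% of at least 100. Without C2, 117 of the 194 were detected. The count changed by 1 or 2 genes in 4 lists, namely trophoblast (7 without C2, 9 with it), primitive streak and mesoderm (12 and 13), blood and endothelium (7 and 8) and fibroblasts (9 and 8). At a limit of 10, in place of 1, 66 remained. The lineage lists were thus detected in about the same share as all mRNA genes, with smaller shares above the higher limits.

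**Figure D3:**
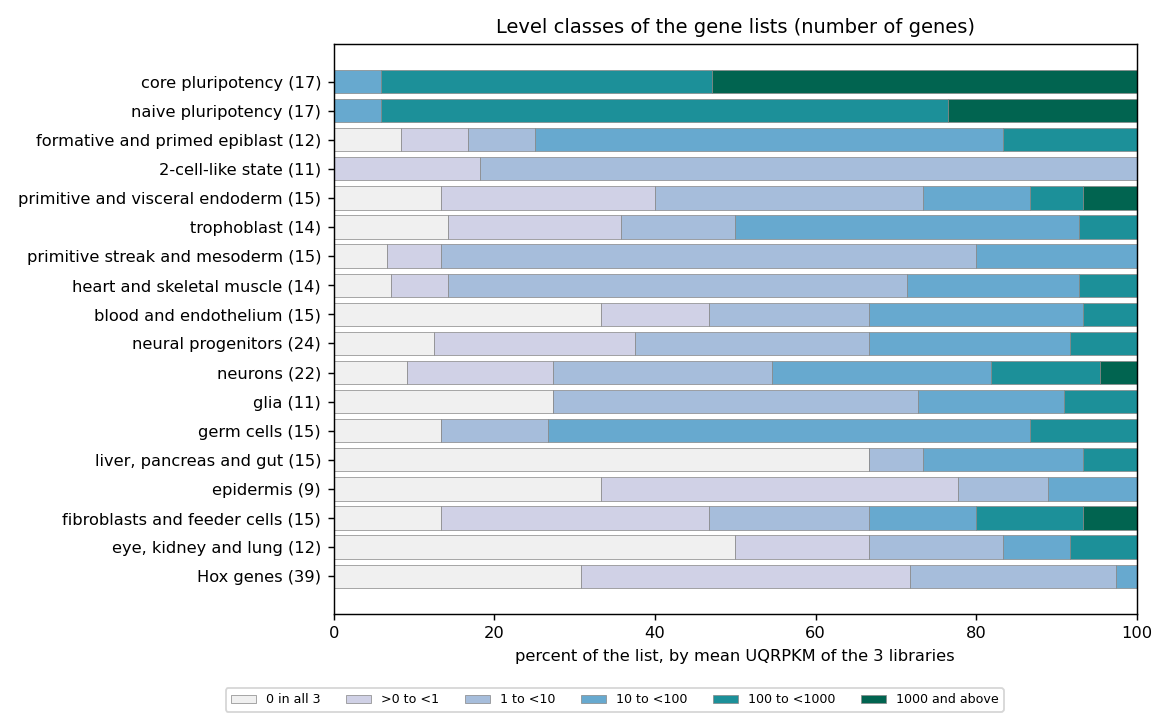
Percent of each gene list in classes of the mean UQRPKM of the 3 libraries, with the number of genes in brackets. The core and naive lists lie wholly above 10, while 10 of the 15 genes of liver, pancreas and gut were listed at 0 in all libraries.

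Of the 15 genes of primitive and visceral endoderm 9 were detected, and a pair of basement membrane genes led. Sparc had 1435, 1706 and 1268 UQRPKM and Lama1 had 397, 543 and 381. The defining factors were low, with Gata4 at 11.0, 14.4 and 11.2, Gata6 at 4.83, 2.93 and 2.35 and Sox17 at 1.25, 0.786 and 0.693. Afp and Ttr, secreted products of visceral endoderm, were listed at 0. In the trophoblast list 9 of 14 were detected. Tfap2c, which is also known from germ cells, had 112, 194 and 135 and Eomes had 58.4, 49.8 and 49.4. Cdx2, the defining factor of trophectoderm, was at 0, 0.912 and 1.21, and Elf5 was at 0, 0 and 1.02. Tpbpa and Prl3d1 of the placenta were listed at 0.

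Genes of the primitive streak and mesoderm were detected in 13 of 15 cases, none above 100. T (Brachyury), the defining factor, was at 3.20, 3.35 and 3.37 UQRPKM and Mixl1 at 3.64, 2.42 and 3.05. Mesp2 had a mean of 23.7 ± 3.19 (SD, n = 3), and Msgn1 was listed at 0. Of heart and skeletal muscle genes, Des, an intermediate filament, had 282, 371 and 231, Myl7 of the atrium had 60.2, 119 and 102, and Tnni3 had 61.2, 89.0 and 55.4. The master factors Myod1 (0.504, 1.06 and 2.79) and Nkx2-5 (3.28, 6.88 and 2.53) were low and Myf5 was listed at 0. In blood and endothelium, Pecam1, an adhesion gene also known from ESCs, had 217, 295 and 197. Hba-a1 had 25.9, 11.4 and 44.0, while Hbb-b1, Hbb-y, Hba-x and Lyz2 were listed at 0.

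Neural genes were of interest for a study of neural differentiation. Beside Olig1 and Olig2, Sox1 had a mean of 30.7 ± 9.19 (SD, n = 3) UQRPKM, the intermediate filament gene Nes had a mean of 23.7 ± 7.86 (SD, n = 3) and Pax6 had 6.21, 13.0 and 6.54. Fabp7, Emx2 and Pax3 were listed at 0. In all, 15 of 24 genes of neural progenitors were detected and 8 had a mean of at least 10. In the neuronal list, Stmn2, encoding a microtubule-destabilising protein of growth cones, had 2246, 2460.0 and 2042 and was the highest lineage gene by the mean. Its range overlapped that of Fn1 (1867, 2848 and 1794), which was the higher of the pair in C2. Tubb3, the antigen of the Tuj1 antibody, had 391, 653 and 445, and the neurofilament gene Nefl had 231, 301 and 219.7. Mapt, encoding tau, lay between 112 and 131. Of 22 neuronal genes 16 were detected and 10 had a mean of at least 10, among them also Nefh (mean 98.2), Gap43 (93.8), Elavl3 (88.3), Nefm (61.8), Slc17a7 (52.2) and Neurod1 (28.9). Map2 was at 0.812, 0.557 and 0.647, Rbfox3 (NeuN) at 5.14, 7.34 and 3.98 and Dcx and Slc17a6 were listed at 0. Of the synaptic vesicle genes, Syp had a mean of 9.41 and Syt1 was at 0.388, 0.406 and 0.715. Of 11 glial genes, Cnp had 191, 268 and 211, Aldh1l1 had 95.5, 100.3 and 85.6, Gfap had 8.94, 25.2 and 7.93 and S100b, Aqp4 and Mog were listed at 0.

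Germ cell genes were the lineage list with the highest median, 37.5 UQRPKM, and 13 of 15 were detected. Kit had 309.9, 355 and 282. Ddx4 (Vasa) had 98.1, 77.5 and 105, Mael had 111, 85.3 and 101, Sycp3 of the synaptonemal complex had 102, 58.4 and 83.0 and Dazl had 56.0, 32.1 and 58.2. The late genes of sperm, Prm1 and Tnp1, were listed at 0.

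Of 15 genes of liver, pancreas and gut 5 were detected, and Alb, Fgb, Ins1, Ins2, Gcg, Cyp3a11, Serpina1a, Amy2a5, Lgr5 and Fabp2 were listed at 0. The highest was Apoa2, an apolipoprotein, with 189, 190.4 and 192 UQRPKM. Cela1 had 56.6, 68.1 and 47.5. Of 9 epidermal genes 2 were detected, Krt10 (20.4, 7.28 and 24.1) and Krt14 (10.1, 6.78 and 5.45), and Trp63, Ivl and Flg were listed at 0. In the eye, kidney and lung list 4 of 12 were detected. Nphs1, nephrin of the kidney filter, had 94.9, 132 and 109. Its antisense gene Nphs1os had 39.1, 39.1 and 41.8, and no source used here says that counting used the strand, so it is not known which gene of the pair the reads belong to.

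Fibroblast genes served as a check for feeder cells. Collagen genes were low or at 0, with Col1a1 at 7.74, 16.4 and 6.59 UQRPKM, Col1a2 at 1.45, 3.04 and 0.838 and Col3a1 at 0, 0.176 and 0. Postn and Dcn had a value in C2 alone (0.296 and 1.04), and Lum and Twist2 were listed at 0. Fn1 (1867, 2848 and 1794), Vim (916, 965 and 945) and Thy1 (137, 129.7 and 136) were high. Over the list 8 of 15 were detected, and its summed level was 2964, 3983 and 2904, most of it from Fn1 and Vim. In contrast, simple epithelium genes were all present, with Cdh1, the E-cadherin of ESC colonies, at 747, 1349 and 772 and Epcam at 774, 1153 and 928.

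Olfactory and vomeronasal receptor genes and genes of keratin-associated proteins were listed at 0 for nearly all members. Among all mRNA genes, 26.2% were listed at 0 in all 3 libraries and 62.9% were detected. Of 1102 olfactory receptor genes 1067 were listed at 0 in all 3 libraries and 7 were detected (8 without C2), and of 329 vomeronasal receptor genes 313 and 3. Of 53 genes of keratin-associated proteins 52 were at 0. Hox genes, which pattern the body axis and are held by Polycomb in ESCs, were detected in 11 of 39 cases (10 without C2). Of the 39, 12 were listed at 0 in all 3 libraries and 16 had a mean above 0 and under 1. Hoxc13 alone had a mean of at least 10 (10.8, 16.1 and 6.73 UQRPKM).

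The spread between libraries was set mainly by C2. Among 11853 mRNA genes with a mean of at least 10, the median coefficient of variation (CV, the SD as percent of the mean) was 16.0% over 3 libraries. It was 6.01% between C1 and C3 alone, 17.1% between C1 and C2 and 17.0% between C2 and C3. The median CV of 2 or 3 values is smaller than the SD behind it, so for a comparison with counting error it was rescaled to that SD under a normal spread. In mRNA genes of 10 to under 100 the rescaled value was 12.7% for C1 and C3, beside 8.32% from counting error of the estimated reads. In genes of 100 to under 1000 it was 7.17%, beside 3.42%, and in those of 1000 to under 10000 it was 6.30%, beside 1.55%. For all 3 libraries it was 22.4%, 16.7% and 17.1% in these classes. The counting errors rest on estimated reads.

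**Figure D4:**
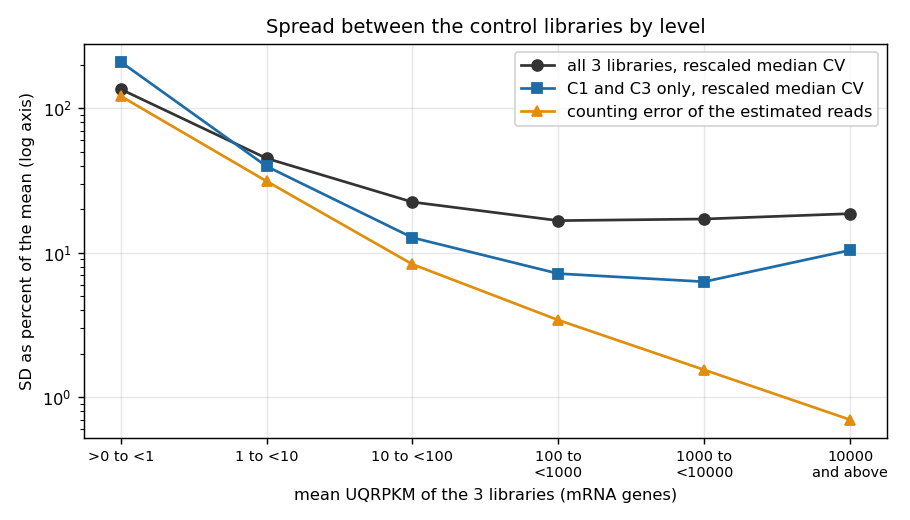
SD as percent of the mean (log axis) of mRNA genes by class of mean UQRPKM, for all 3 libraries and for C1 and C3 alone (both as the median CV rescaled to the SD of a normal spread), and from the square root of the estimated reads. From a mean of 1 upward the curve of all 3 lies above that of C1 and C3, and both lie above the counting error (6.30% for C1 and C3 beside 1.55% from 1000 to under 10000).

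The same was seen in single genes. In 413 of the 11853 genes (3.48%) C2 was 2-fold or more from both other libraries on the scale of log2(UQRPKM + 1), with 114 above and 299 below. C1 was so in 30 genes and C3 in 18. The genes below in C2 had a median GC content of 39.9%, those above 55.8%, and all genes 50.4%. Farthest above in C2 were Gm5848 (69.7, 405 and 82.6 UQRPKM), Vstm2l (12.3, 41.6 and 10.8), Nfkbil1 (53.4, 170.4 and 56.6) and the splicing protein gene Snrpd2 (2469, 7559 and 2562). Farthest below were the predicted genes Gm4832 (38.5, 2.35 and 35.8), Gm11810 (28.8, 1.54 and 26.2) and Gm3604 (31.2, 2.35 and 35.9) and the zinc finger gene Zfp52 (18.3, 2.47 and 26.6).

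Genes apart in C1 or C3 were few and often short. In C1, the histone genes Hist2h2bb (136, 21.8 and 43.7 UQRPKM) and Hist1h4f (131, 46.9 and 35.4) and the respiratory chain gene Cox6b1 (4224, 1672 and 1231) were highest above the others. The 11 genes 2-fold above in C1 had a median transcript of 461 bases and the 19 below one of 1048, against 3250 bases for all. For C3 the medians were 546 bases for the 5 above and 1619 for the 13 below. In C3, Rhox10 (6.15, 7.72 and 22.7) was among those above and the metallothionein gene Mt4 (21.5, 12.5 and 2.20) was farthest below.

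By CV, the most variable mRNA genes with a mean of at least 10 were Gm5848 and Hist2h2bb. Hist1h4k, another histone gene, had 73.6, 7.75 and 35.6 UQRPKM, and 2200002J24Rik had 15.7, 2.53 and 27.9. 1700009P17Rik had 6.56, 36.9 and 12.1, while LOC102640172 was high in C3 alone, at 84.8 against 22.0 or less. Vstm2l and Mt4 completed these 8. The high library thus differed from gene to gene.

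Other genes hardly moved. The lowest CV among mRNA genes with a mean of at least 10 was that of Slc12a2, a chloride cotransporter, with 76.3, 76.3 and 76.6 UQRPKM. Mat2b, a subunit of methionine adenosyltransferase, had 499, 497 and 495, Tm7sf3 had 472, 473 and 475 and Phgdh, the first enzyme of serine synthesis, had 791, 792 and 786. Slc7a6os, Oxr1, Phf5a and Eps15 followed, each with a CV below that of Zfp42 (0.657%). Of the 11853 genes, 3278 (27.7%) had a CV under 10% and 274 (2.31%) had one over 50%. Both sets of 8 were chosen by their spread, so it is a description.

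The deviation of C2 followed GC content in steps. Detected mRNA genes with a GC content (14377) were sorted into 10 bins of equal size, and in each bin the median of log2(UQRPKM + 1) in a library less the mean of the other libraries was taken. In C2 it rose from -0.44 in the bin lowest in GC, with a median GC of 39.9%, to 0.46 in the highest, with a median of 60.1%. The contrast between highest and lowest bin was 0.90. For each gene the differences of the 3 libraries sum to 0, so C1 and C3 together must mirror C2, and C1 was compared with C3 directly. The median of C1 less C3 was 0.04 in the lowest bin and -0.01 in the highest, a contrast of -0.06. Sorted by transcript length, the contrast was 0.15 in C2 and 0.18 for C1 less C3. Rif1 (39.3% GC) and Suz12 (41.6%) were low in C2 and Utf1 (63.5%) was high, on the side of this trend. Dppa5a (49.4%) and Mki67 (46.6%) were low in C2 although genes of such GC content were not low there by the median. The part of GC content in any single gene was not tested.

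**Figure D5:**
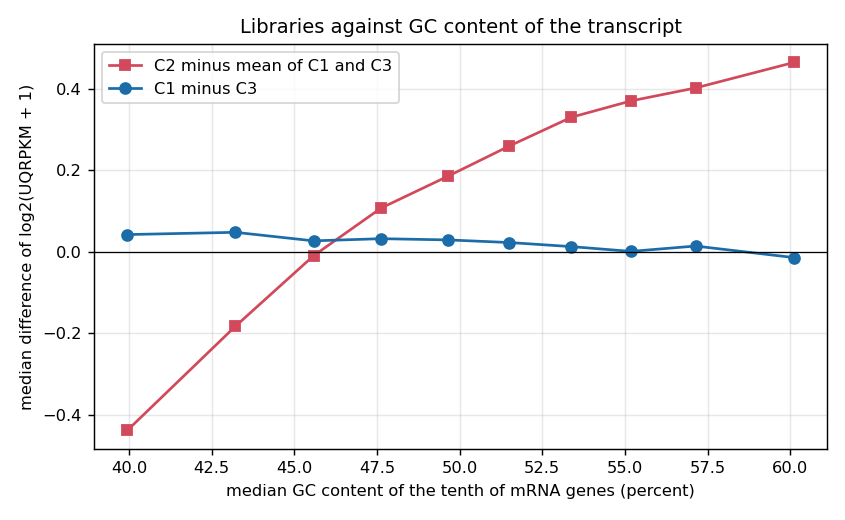
Median difference on the log2(UQRPKM + 1) scale in 10 bins of detected mRNA genes by GC content (horizontal axis, median percent GC of the bin), for C2 less the mean of C1 and C3 and for C1 less C3. The first climbs from -0.44 to 0.46, and the second goes from 0.04 to -0.01.

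Promoter sequence was compared between level classes as far as sequences were at hand. RefSeq windows were found for 17011 of 23382 mRNA genes, which is 62.8% of the genes at 0 in all 3 libraries and 77.1% of the detected ones. With fewer than 80% covered the check is void for the classes as a whole, and these shares describe the covered genes only. A window was called CpG-rich at an observed over expected ratio of at least 0.6, as 49.1% of all covered windows were. The share was 3.93% in genes listed at 0 in all 3 libraries, 37.7% at means of 1 to under 10, 65.8% at 10 to under 100 and 82.1% at 100 to under 1000. The letters TATAAA, searched on both strands, were in 29.4% of the windows of genes at 0 and in 7.39% of those of detected genes, against 13.2% of all. In the core list 5 of the 11 covered members were CpG-rich, with Sox2 the richest, and in the naive list 5 of 11.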

How the data were processed

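Values of the 3 control libraries of J1 ESCs were used. Per the file headers, the authors deposited 1 table of UQRPKM, that is RPKM with upper-quartile scaling, and the submitters' processing notes list DESeq and the build mm10. No source used here names the aligner, the counter or the annotation. Nothing was rescaled. Means, SDs, ranks and CVs came from the 3 columns, log2(UQRPKM + 1) served for correlations and folds, and a mean of at least 1 for detection. No test was made, since there is 1 group. Of the 44788 rows 32094 were matched to RefSeq (GRCm38.p6) by symbol, 5761 by gene ID and 1754 by an older symbol. Lengths and GC content were from GENCODE M21, and sequences from RefSeq. The read step, the genes apart in 1 library, the GC contrast with its correction and the median CV of high genes were tested on simulated data. Other calculations were not. Simulated low values were whole multiples of the step, unlike most low values here, so the depth estimate itself was not tested. Members, lists and rules were chosen with earlier results of these data known. Named were the 3 markers, the 20 highest mRNA genes, the highest genes of other types, the 8 most and 8 least variable mRNA genes, the 5 farthest above and below in each library, and members of 45 gene lists, and not every such gene is printed. The rule took the 4 highest members of a lineage list and defining markers at 0. Other lineage members, pseudogene copies, mitochondrial genes other than the highest, and members of general lists were picked after their values were seen. Dub1 and Psx1 have no row by that symbol. Alternatives covered limits, pseudocounts, scaling, gene types, a smooth GC and length correction (lowess, span 0.3) and each library left out in turn. Python 3.11.15, numpy 2.4.6, pandas 2.3.3, statsmodels 0.14.6 and matplotlib 3.10.9 were used.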

Additional observations from a re-analysis of the deposited data

How the results depend on the processing

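Of 91 values under alternatives, 62 stayed within a set limit, 29 moved by more and 0 changed sign. Most of these values cannot be negative, so a change of sign was open mainly to the GC contrasts. The limit was the SD between libraries or pairs of libraries, and 1.5 times for counts. For CpG-rich shares it was a binomial confidence interval over genes. For the GC contrasts it was the SD of the library contrasts, which are not independent, and this limit was wide (0.788). With each library left out in turn, 21307 to 21410 genes were detected, 18683 to 19042 were listed at 0, the ranks of Pou5f1, Sox2 and Nanog were 24 to 28, 347 to 424 and 214 to 276, the share of ribosomal protein genes was 6.13% to 6.38%, that of mRNA 69.0% to 69.8%, that of the 100 highest genes 24.6% to 24.9%, and the median CV was 6.01% to 17.1%, lowest without C2. Among all genes the ranks were 45, 597 and 438. The 100 highest genes held 24.5% among mRNA genes only and 25.1% of the summed median, ribosomal protein genes 8.95% of the mRNA signal, and mRNA genes 75.2% without the 100 highest genes. The mean correlation of 0.959 became 0.910 with a pseudocount of 0.1, 0.981 with 10, 0.982 without a filter, 0.979 for mRNA and 0.968 after a smooth correction for GC and length. Genes apart in C1, C2 and C3 numbered 171, 1969 and 151 at 1.5-fold, 1, 34 and 1 at 4-fold, and 8, 238 and 1 with a pseudocount of 10, and the correction left 192 in C2. At a limit of 10, 66 lineage genes were detected. Among the covered mRNA genes only, 68.6% of detected and 10.2% of other genes had CpG-rich windows. These shares were 49.2% and 5.57% at a ratio of 0.75, and 75.3% and 17.4% at a limit of 10.

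No paired analysis was possible because the results come from no test and only 1 group was described. Reads are estimates, so values of a few reads, short rows and gene copies are the least certain, and an SD from 3 libraries is itself imprecise. The cause of the changes was not tested.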

Other observations

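Genes of the imprinted list, which are expressed from 1 parental allele in many tissues, were detected in 20 of 22 cases with a median of 110 UQRPKM. Airn, the antisense RNA of the Igf2r locus, was listed at 0. Of the immediate early genes 11 of 14 were detected, and C2 was the highest library for 12 of the 14, beside 57.9% of 11853 mRNA genes with a mean of at least 10. Egr3 was listed at 0.

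Genes of the Y chromosome were present. Eif2s3y, a translation factor gene of the Y chromosome, had 433, 277 and 367 UQRPKM, whereas Xist, the RNA that coats the inactive X chromosome, had 0.104, 0 and 0.192. Tsix, which overlaps Xist on the other strand, had 14.1, 11.6 and 19.4, and strand was not stated for the counting. By chromosome, the share of mRNA genes detected was lowest on Y (2.14% of 234), followed by chromosome 6 (48.0% of 1330), chromosome 14 (51.6% of 1035) and X (53.4% of 981), and highest among the nuclear chromosomes on chromosome 11 (76.0% of 1591). Single rows could be at 0 in 1 library only. Snord69, a box C/D guide, had 459, 0 and 307 UQRPKM.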
